A study of Mus musculus with 8 samples.

Results

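The genes described here are 10 genes of the regulated secretory pathway in mouse atria: Pam, Chga, Chgb, Scg2, Scg5, Rab27a, Rab27b, Sytl1, Sytl2 and Sytl4. They were found by symbol among the 54532 genes of the count table, and all 10 passed the filter on low counts that left 18033 genes. The list was selected on measured values of the same contrast, KO against control, so the differences of the 10 genes are given as a description. Where the text says whether one of them was called, that is its row in the fit over all genes, read as no evidence for or against a change. Polyadenylated RNA of whole atria was sequenced in 8 libraries, 4 KO and 4 control. Mice of both groups carried the same Chd4flox/flox alleles and were injected on postnatal day 2 with an AAV9 vector. KO mice received AAV9:Nppa-Cre, in which the promoter of the atrial peptide gene Nppa drives Cre recombinase, and control mice received AAV9:Nppa-EGFP, in which it drives a fluorescent protein. The Nppa promoter limits Cre to cells that use it, mainly atrial cardiomyocytes, while the tissue sequenced held mixed cell types of right and left atria. Neither the age at collection nor whether mice were pooled is given in the sources used here.

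Atrial cardiomyocytes are endocrine cells: they store natriuretic peptides in dense-core granules near the Golgi and release them when stretched. In endocrine cells in general, granins condense the granule content, PAM amidates peptides at their C-terminal glycine and is the main membrane protein of atrial granules, and Rab27 on the granule membrane binds synaptotagmin-like proteins (the Sytl genes), which dock the granule at the plasma membrane. SNARE proteins, Munc18 and Munc13 proteins and calcium-binding synaptotagmins then carry out the fusion.

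The granin promoters are shown because the 4 granin members shared a pattern over the libraries, lowest in the same library of each group. RefSeq windows on GRCm38.p6, from 250 bases before to 50 bases after an annotated start, were at hand for 8 of the 10 genes (Sytl2 and Rab27b had none). In the 3 windows below, written 5′ to 3′ on the strand of the gene, capitals mark exact matches to 6 motifs searched on both strands. These were the cyclic AMP response element TGACGTCA, the T-box core AGGTGT, the E-box CACGTG, the TATA box TATAAA, and TTCAGCACC and GGACAGC, the left and right arms of RE1, the element bound by the repressor REST.
Scg2, chr1:79439977-79440276, minus strand: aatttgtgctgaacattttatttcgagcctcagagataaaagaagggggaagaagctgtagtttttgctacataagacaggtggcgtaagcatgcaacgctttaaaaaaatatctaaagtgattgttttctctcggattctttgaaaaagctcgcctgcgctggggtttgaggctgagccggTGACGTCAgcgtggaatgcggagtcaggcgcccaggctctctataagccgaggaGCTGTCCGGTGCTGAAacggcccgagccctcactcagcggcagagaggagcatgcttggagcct
Chgb, chr2:132781392-132781691, plus strand: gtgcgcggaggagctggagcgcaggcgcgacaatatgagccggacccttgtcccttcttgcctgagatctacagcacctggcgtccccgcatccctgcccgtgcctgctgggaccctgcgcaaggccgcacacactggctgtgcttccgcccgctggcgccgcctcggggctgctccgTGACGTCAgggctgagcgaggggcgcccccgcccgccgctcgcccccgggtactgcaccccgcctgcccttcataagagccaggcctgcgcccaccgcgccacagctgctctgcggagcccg
Chga, chr12:102554691-102554990, plus strand: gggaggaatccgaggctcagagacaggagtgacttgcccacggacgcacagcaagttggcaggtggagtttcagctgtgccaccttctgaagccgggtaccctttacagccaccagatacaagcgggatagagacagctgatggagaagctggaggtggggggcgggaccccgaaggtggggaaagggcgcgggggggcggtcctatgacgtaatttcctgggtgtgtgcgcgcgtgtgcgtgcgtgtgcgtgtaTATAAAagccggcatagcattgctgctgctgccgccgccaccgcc
Scg2 held TGACGTCA with its first base at position -68 from the RefSeq start, and Chgb held it at -72. It was present in 588 of all 32851 windows (1.79%). Scg2 also held both RE1 arms on the antisense strand, side by side with no base between them, with first bases at -14 and -7. The arms were searched for separately, so a whole RE1, with arms and their spacing together, was not tested for. The left arm was found in 0.371% of all windows and the right arm in 6.56%. Chga held TATAAA at position 6, just upstream of the gene start in GENCODE M21, and this motif was in 13.6% of all windows. The M21 gene models of Scg2 and Chgb begin upstream of these matches, so the start in use in atria is not known from the windows. Among the other members, Sytl1 held AGGTGT at -59, 1 of the windows of Rab27a held its reverse complement at -130, and the other held CACGTG at -246, against 13.7% of all windows for the T-box core and 7.15% for CACGTG. The windows of Pam, Scg5 and Sytl4 held none of the 6 motifs. A match says only that the letters are there.

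Total counts were 34002292 to 38228982 in KO and 39804625 to 40588007 in control, so that 3 counts in a library, used as the floor of detection, correspond to 0.0744 to 0.0885 CPM (read counts relative to the library total, scaled by TMM factors). Chd4, the targeted gene, averaged 185 ± 12.4 CPM in KO, against 292 ± 13.3 CPM in control (SD, n = 4 each; log2 fold change -0.66, edgeR adjusted p = 1.86e-05). Whole atria were sequenced, so cells that do not use the Nppa promoter are part of each library. Of all 18033 genes, 27.9% were called at an adjusted p under 0.05, 14.8% higher and 13.1% lower in KO, and 29.2% had KO and control values that did not overlap. Among the 10 secretory genes, 4 were called and 4 did not overlap (Sytl1 higher, and Pam, Chgb and Sytl2 lower); the members were picked from this contrast, so nothing is read from that share. Their median log2 fold change was -0.08, beside 0.01 over all genes tested. On the first 2 principal components, the groups separated along the first (60% of the variance), and KO 2 and control 2 stood at -21.39 and -30.42 on the second (20.3%), against 1.29 to 14.5 for the other 6 libraries. KO and control libraries share no library-name prefix, so prefix and group cannot be told apart.

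**Figure D1:**
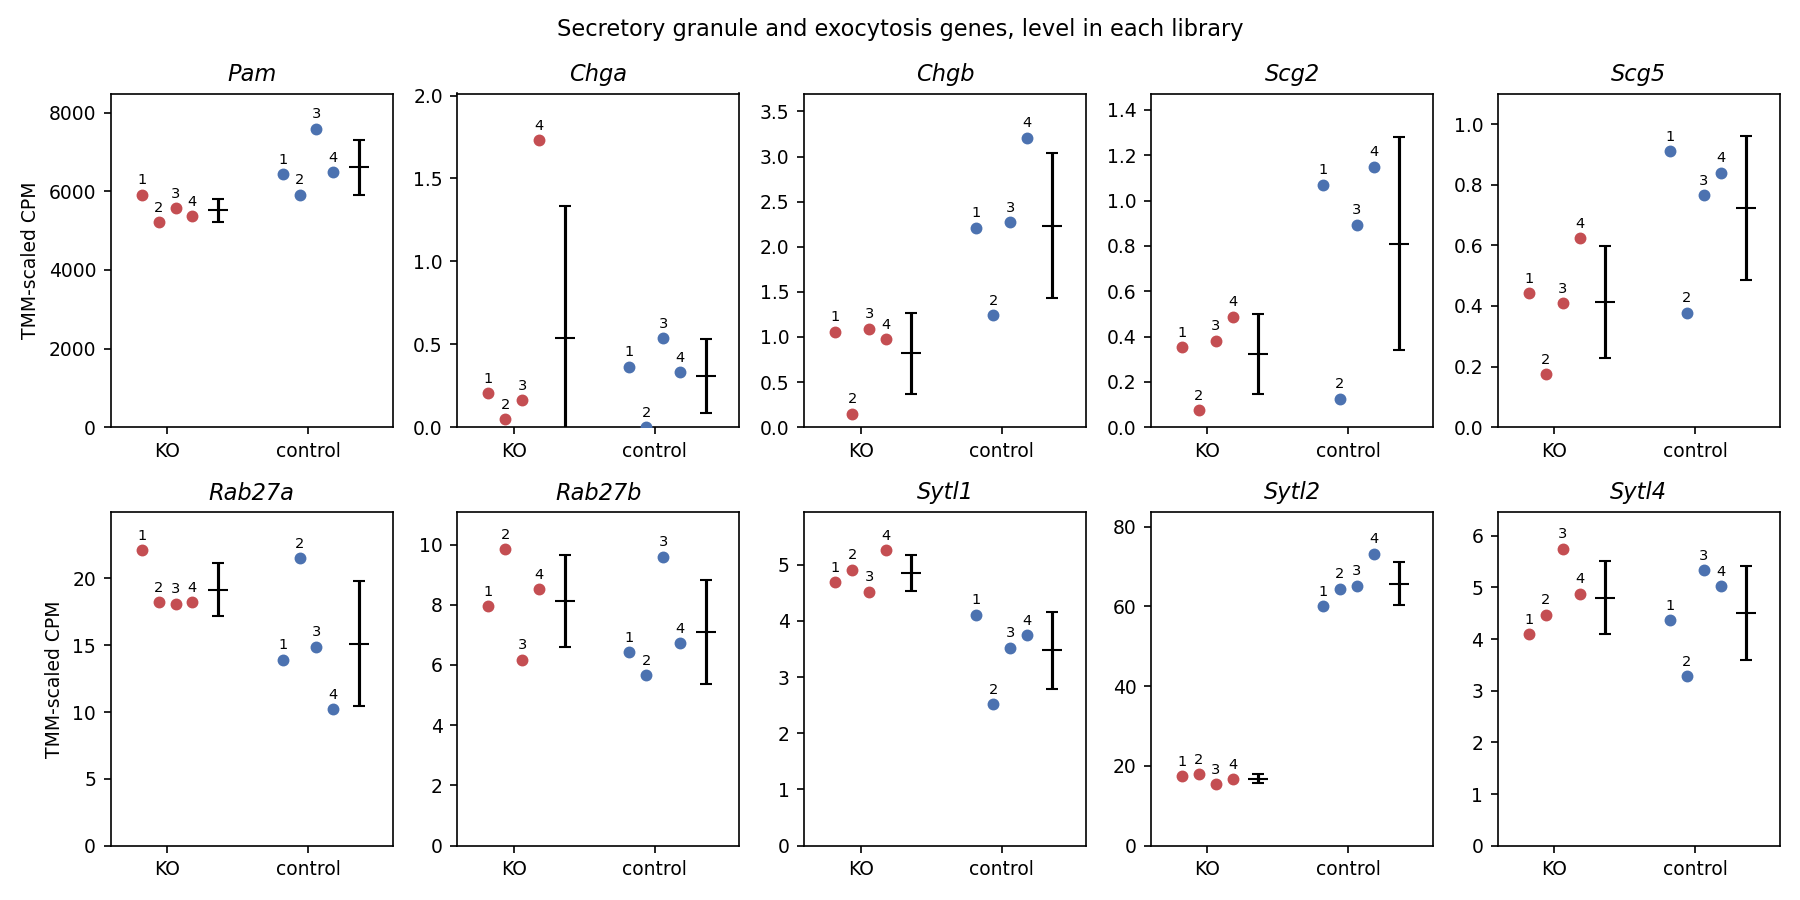
Level of each of the 10 genes in TMM-scaled CPM (y axis, a scale of its own in each panel) in the 4 KO and the 4 control libraries, numbered by replicate; the black dash and bar give the mean and SD, cut off at 0 for Chga in KO. Sytl2 lies at 15.4 to 17.9 CPM in KO and 60.1 to 73.2 CPM in control, and KO 2 and control 2 are the lowest libraries of their groups in the 4 granin panels.

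Sytl2 differed most. It encodes Slp2-a, a Rab27 effector whose C2 domains bind the plasma membrane. Sytl2 (ENSMUSG00000030616, chr7:90302252-90410719 on GRCm38, plus strand) had 17.4, 17.9, 15.4 and 16.6 CPM in KO libraries, against 60.1, 64.5, 65.2 and 73.2 CPM in control libraries. All KO libraries lay below all control libraries, and the spread within a group was small beside the gap. The log2 fold change was -1.97 (SE 0.08, 95% interval -2.13 to -1.80), a 3.91-fold lower level in KO. With any 1 library left out, it ranged from -2.01 to -1.91. In bulk tissue, fewer cells of a type and less RNA per cell cannot be told apart. Sytl2 is also used by pigment cells, which occur in the heart, and the pigment-cell marker Mlana had 11.2, 11.8, 10.1 and 9.48 CPM in KO, against 49.6, 61.5, 38.8 and 47.7 CPM in control. Of the 6 pigment-cell markers, 4 were tested, of which Mlana fell (adjusted p = 1.28e-06) and Dct rose (adjusted p = 0.000535). Dct averaged 1.74 ± 0.477 CPM in KO, against 0.415 ± 0.142 CPM in control. The summed level over all 6 was 54.2 to 76.5 CPM in KO and 83.4 to 113 CPM in control. Mlana and Mitf made up most of this sum, and of these Mlana alone was lower in KO. Tyrp1 had no count in any KO library, and it was at 0.255 CPM or less in control. Among the 6, only Mlana and Tyrp1 had a lower mean in KO. Mitf averaged 49.3 ± 9.09 CPM in KO, against 46.9 ± 3.78 CPM in control. Pmel averaged 0.778 ± 0.135 CPM in KO, against 0.65 ± 0.196 CPM in control. Tyr, not tested, averaged 0.218 ± 0.0559 CPM in KO, against 0.083 ± 0.0638 CPM in control. The part of these cells in the level of Sytl2 was not tested.

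The other Sytl genes stood apart from Sytl2. Sytl1 (Slp1, ENSMUSG00000028860, chr4:133253090-133263113, minus strand) had 4.69, 4.91, 4.52 and 5.26 CPM in KO, against 4.11, 2.52, 3.52 and 3.74 CPM in control. Every KO library was above every control library, by little, and the log2 fold change was 0.48 (SE 0.16, 95% interval 0.13 to 0.83). This call was lost when KO 1, KO 2, KO 3, KO 4, control 2, control 3 or control 4 was left out, with log2 fold changes of 0.35 to 0.52. Sytl4 (granuphilin, the effector known for docking insulin granules, ENSMUSG00000031255, chrX:133936385-133981812, minus strand) had 4.1, 4.47, 5.75 and 4.88 CPM in KO, against 4.37, 3.28, 5.33 and 5.02 CPM in control. These values overlapped, at a log2 fold change of 0.09 (SE 0.17, 95% interval -0.28 to 0.47), whose sign turned without KO 3 (-0.01) or control 2 (-0.03). The paralogs Sytl3 and Sytl5 were low. Sytl3 averaged 0.727 ± 0.274 CPM in KO, against 0.733 ± 0.15 CPM in control, and Sytl5 averaged 0.494 ± 0.217 CPM in KO, against 0.263 ± 0.111 CPM in control (SD, n = 4 each). Neither passed the test (edgeR adjusted p = 0.99 for Sytl3 and 0.154 for Sytl5).

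The Rab27 GTPases, to which these effectors bind, overlapped between the groups. Rab27a (ENSMUSG00000032202, chr9:73044854-73097629, plus strand) had 22.1, 18.2, 18.1 and 18.2 CPM in KO, against 13.9, 21.5, 14.9 and 10.2 CPM in control. Control 2 lay above 3 of the 4 KO libraries, and the other controls lay below all of them. The log2 fold change was 0.34 (SE 0.19, 95% interval -0.09 to 0.77), and it ranged from 0.19 without control 4 to 0.56 without control 2. Against controls 1 and 2 alone it was 0.09, and against controls 3 and 4 alone 0.59. Rab27b (ENSMUSG00000024511, chr18:69979131-70141605, minus strand) had 7.96, 9.85, 6.18 and 8.51 CPM in KO, against 6.42, 5.67, 9.6 and 6.72 CPM in control, with a log2 fold change of 0.19 (SE 0.18, 95% interval -0.20 to 0.59). It was 0.09 without KO 2, 0.10 without control 2, 0.31 without KO 3 and 0.37 without control 3. Rab27a shares 149 bases of exon with Gm27186 on the same strand, and Pam, below, shares 188 bases with B230216N24Rik on the same strand, so both counts are uncertain by the reads from these stretches.

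Pam was by far the most abundant member. Pam (ENSMUSG00000026335, chr1:97795114-98095646, minus strand) had 5908, 5219, 5566 and 5361 CPM in KO, against 6435, 5916, 7595 and 6488 CPM in control. The highest KO library lay just under the lowest control library. The log2 fold change was -0.26 (SE 0.08, 95% interval -0.44 to -0.08), a 1.2-fold lower level in KO. The call was lost without KO 2, KO 3, KO 4, control 1, control 3 or control 4, with values of -0.28 to -0.19. Nppa, the main cargo of these granules and the gene whose promoter is in both vectors, averaged 10574 ± 1921 CPM in KO, against 17155 ± 918 CPM in control (SD, n = 4 each; edgeR adjusted p = 0.000808). Of 8 markers listed for atrial cardiomyocytes, Nppa among them, 7 fell, 0 rose and Actc1 was not called. Their summed levels were 53991 to 68693 CPM in KO and 83320 to 91157 CPM in control. The list holds Myh6, Actc1 and Tnnt2, which are not particular to atria. Myh6 was the largest part of the sum, at 26991 ± 2282 CPM in KO, against 40488 ± 2252 CPM in control. What the lower level of cardiomyocyte marker RNA contributes to the level of Pam was not tested.

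The granins were rare transcripts, and their counts set how firmly they can be read. Chgb (chromogranin B, ENSMUSG00000027350, chr2:132781278-132795079, plus strand) had counts of 36, 6, 40 and 36 in KO, against 85, 49, 89 and 126 in control, which is 1.06, 0.149, 1.09 and 0.975 CPM in KO, against 2.21, 1.24, 2.27 and 3.21 CPM in control. All 4 KO libraries were below all 4 controls, and KO 2 was far below the other KO libraries. The log2 fold change was -1.45 (SE 0.48, 95% interval -2.52 to -0.39), 2.74-fold lower in KO. The call was lost without KO 1, KO 3, KO 4, control 1, control 3 or control 4, at log2 fold changes of -1.63 to -1.23.

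Scg2 (secretogranin II, the precursor of secretoneurin, ENSMUSG00000050711, chr1:79434669-79440120, minus strand) had counts of 12, 3, 14 and 18 in KO, against 41, 5, 35 and 45 in control. KO 2 was at the floor of 3 counts and control 2 was close to it, so the groups overlapped through control 2. The log2 fold change was -1.32 (SE 0.62, 95% interval -2.69 to 0.06), and it ranged from -1.68 without control 2 to -0.98 without KO 2. Scg5 (the 7B2 protein, a chaperone of the convertase PC2, ENSMUSG00000023236, chr2:113776362-113829121, minus strand) had counts of 15, 7, 15 and 23 in KO, against 35, 15, 30 and 33 in control, again lowest in KO 2 and control 2. Its log2 fold change was -0.82 (SE 0.40, 95% interval -1.68 to 0.05). Chga (chromogranin A, ENSMUSG00000021194, chr12:102554969-102565028, plus strand) had counts of 7, 2, 6 and 64 in KO, against 14, 0, 21 and 13 in control. KO 4 alone was high, at 1.73 CPM, while KO 1, KO 2 and KO 3 lay at 0.0496 to 0.206 CPM. The log2 fold change of Chga was 0.80 (SE 1.11, 95% interval -1.74 to 3.34), and it was -1.15 without KO 4, 0.38 without control 2 and 1.21 without control 3.

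KO 2 was the lowest KO library and control 2 the lowest control library for each of the 4 granin members. Over all genes tested, KO 2 was the lowest KO library for 22.4% and control 2 the lowest control library for 30.5%. The further granin Scg3 had 3.6, 4.52, 3.35 and 4.25 CPM in KO, against 3.85, 1.24, 4.52 and 4.79 CPM in control. Scg3 was thus highest in KO 2 among KO libraries and lowest in control 2 among controls. Some other neuroendocrine genes, picked after their values were seen, had the same 2 low libraries as the granin members. Snap25, a SNARE of neurons and endocrine cells, had 1.3, 0, 1.58 and 2.19 CPM in KO, against 4.63, 0, 4.59 and 4.81 CPM in control. Syt1, the calcium sensor of synaptic vesicles, had 2.21, 0.0248, 1.69 and 2.74 CPM in KO, against 4.92, 0, 4.98 and 4.89 CPM in control. In KO and control libraries 1, 3 and 4, every KO value of Snap25 and Syt1 lay below every control value. Genes and libraries were both chosen on these values, so nothing is read from that. With all libraries, neither gene passed the test (edgeR adjusted p = 0.432 for Snap25 and 0.533 for Syt1). Without KO 2 and control 2 together, a choice made after seeing the data, the log2 fold change was -1.30 for Chgb (SE 0.24), -1.33 for Scg2 (SE 0.31), -0.77 for Scg5 (SE 0.31) and 0.78 for Chga; these values are a description, since both the genes and the libraries left out were chosen on them.

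Of 12 markers of autonomic neurons and chromaffin cells, 5 passed the filter, 0 rose and Elavl4 alone fell. Their summed level was 10.5, 8.16, 11 and 10.7 CPM in KO, against 13.9, 8.12, 14.6 and 14.4 CPM in control, lowest again in KO 2 and control 2. Defining markers such as Th, Phox2a, Chrna3, Chrnb4, Slc18a3 and Chat did not pass the filter, though none of these had a count of 0 in every library. Of these, Chrnb4 had counts of 1, 0, 0 and 0 in KO, against 16, 15, 17 and 10 in control. Th went the other way, with counts of 11, 8, 7 and 9 in KO, against 5, 5, 5 and 1 in control. The groups overlapped for Phox2a, Chrna3, Slc18a3 and Chat. Ddx3y, on the Y chromosome, was under 1 CPM in KO 2, control 1 and control 2. It was at 105 to 124 CPM in the other 5 libraries. The part of neuronal or chromaffin tissue in the granin values was not tested, nor was that of the Ddx3y difference.

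**Figure D2:**
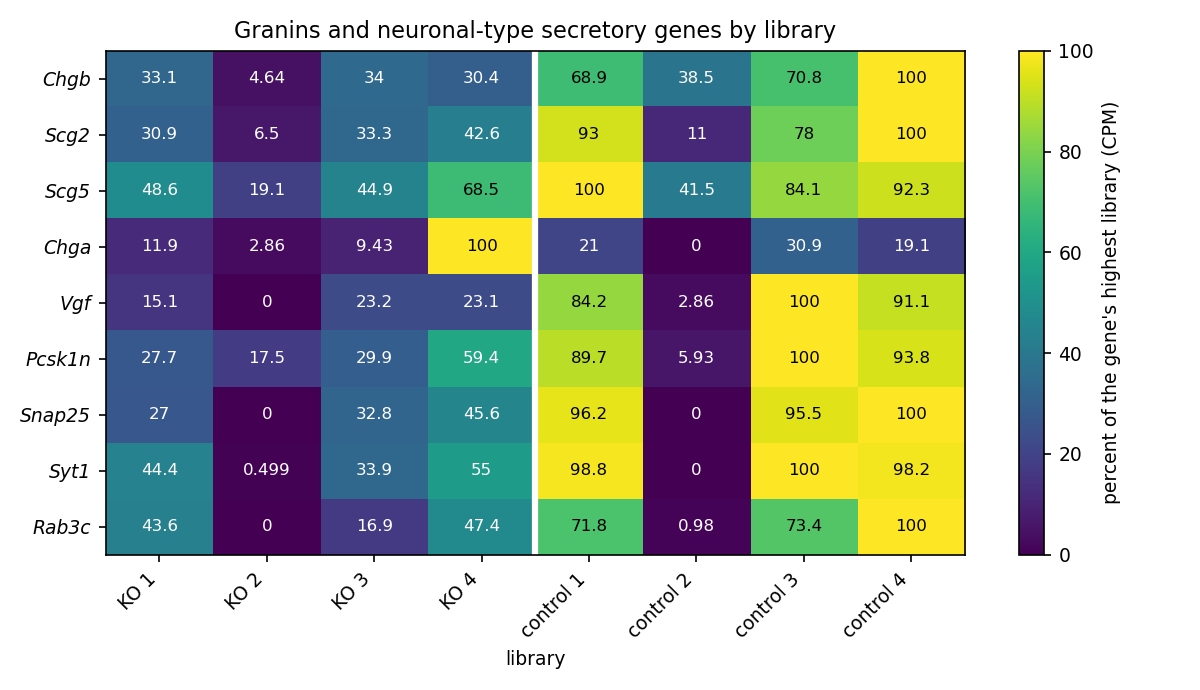
Level of the 4 granin members, of Vgf and Pcsk1n, and of Snap25, Syt1 and Rab3c (chosen after their values were seen) in each library, as percent of the highest library of each gene (colour and printed value; KO libraries left of the white line, control libraries right of it). Snap25 is at 0 in KO 2 and control 2, at 27 to 45.6% in the other KO libraries and at 95.5 to 100% in the other controls. Scg3, listed with Vgf and Pcsk1n, is not drawn, and its highest KO library was KO 2.

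**Figure D3:**
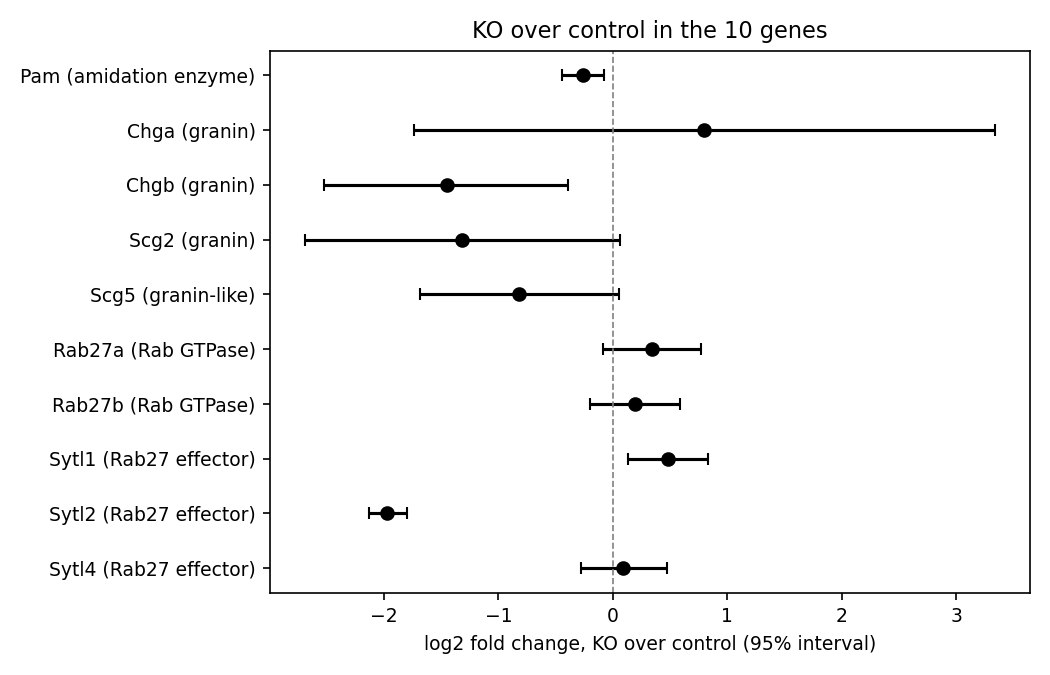
Log2 fold change of KO over control (x axis, with 95% interval) for the 10 genes (y axis, with their roles). Sytl2 lies at -1.97 with a narrow interval, while the interval of Chga runs from -1.74 to 3.34.

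To set the genes against each other, levels were divided by the length of merged exons. In this unit of CPM per kilobase, Pam stood at 464 ± 25.1 in KO and 556 ± 59.4 in control, far above the rest. Next in control came Sytl2, at 1.21 ± 0.0773 in KO and 4.72 ± 0.392 in control, and Rab27a, at 4.94 ± 0.51 in KO and 3.89 ± 1.21 in control (SD, n = 4 each). The control values of Sytl2 (4.31 to 5.25) and Rab27a (2.63 to 5.53) overlapped, so their order in control is not settled, while in KO every library had more Rab27a than Sytl2 per length. Sytl1 had 1.92 ± 0.126 CPM per kilobase in KO and 1.38 ± 0.27 in control, Sytl4 had 0.936 ± 0.138 in KO and 0.878 ± 0.177 in control, and Rab27b had 0.761 ± 0.142 in KO and 0.665 ± 0.161 in control. Among granins, Chgb had 0.299 ± 0.164 CPM per kilobase in KO and 0.814 ± 0.294 in control, Scg5 had 0.263 ± 0.118 in KO and 0.461 ± 0.152 in control, Scg2 had 0.129 ± 0.0701 in KO and 0.321 ± 0.186 in control, and Chga had 0.195 ± 0.29 in KO and 0.112 ± 0.0813 in control. From Sytl2 downward, each gene overlapped its neighbour in the control order over the 4 control libraries, except Rab27a and Sytl1, which did not.

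**Figure D4:**
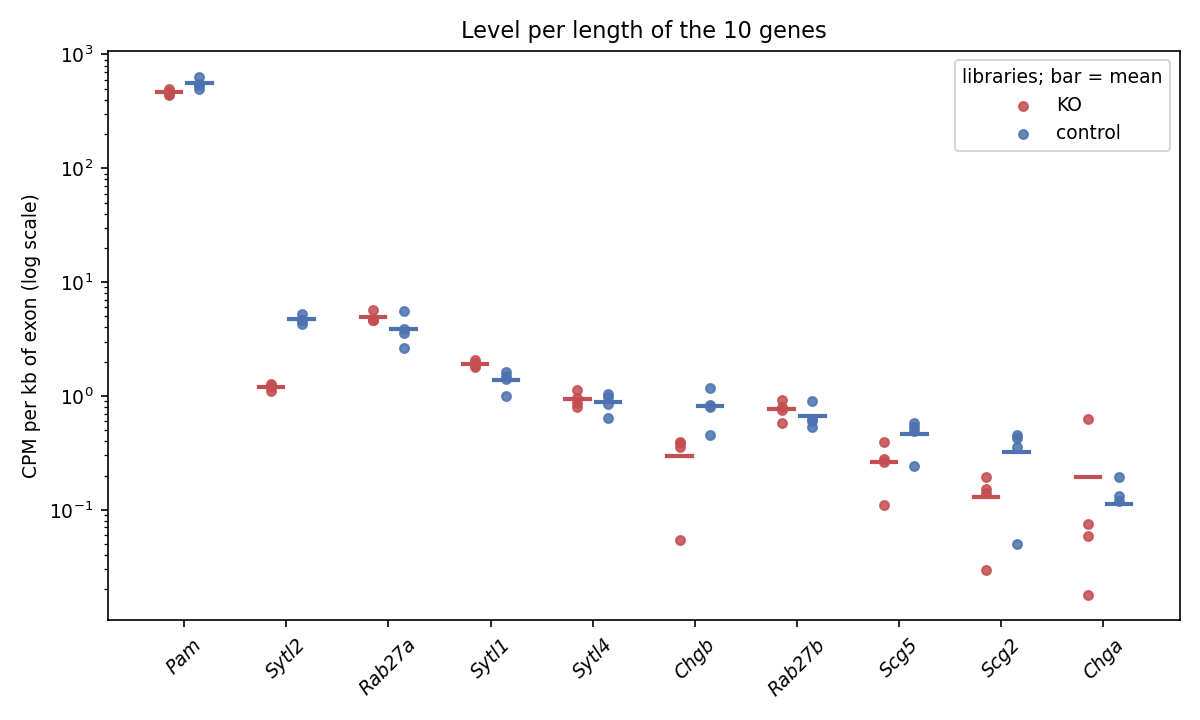
CPM per kilobase of exon (log scale) of the 10 genes in each library, KO left of control for each gene, with bars at the means; the value of 0 for Chga in control 2 is not drawn. Pam is at 464 in KO and 556 in control on average, and no other gene averages 5 or more in either group.

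The rest of the secretory pathway was described with 12 lists that hold none of the 10 genes. Of 172 genes listed, 160 were tested, of which 26 rose, 14 fell and 120 did not pass the test, with a median log2 fold change of 0.01. The share called was 25%, near the 27.9% of all genes tested. Both counts depended on single libraries: 16 rose without KO 2, 17 without KO 3 and 17 without control 4, and 23 fell without control 2. Without KO 2 and control 2 together, 16 rose and 24 fell. Among the other granin-like proteins, 0 of 3 passed the edgeR test (1 at an unadjusted p under 0.05, 0 with DESeq2 and 0 with limma-voom): Vgf, a granin-like precursor of neuropeptides, averaged 0.27 ± 0.192 CPM in KO, against 1.22 ± 0.791 CPM in control (SD, n = 4 each; edgeR adjusted p = 0.125). Pcsk1n averaged 0.429 ± 0.23 CPM in KO, against 0.923 ± 0.568 CPM in control (edgeR adjusted p = 0.238). Scg3, with the most counts of these genes, was not lower, at 3.93 ± 0.546 CPM in KO, against 3.6 ± 1.62 CPM in control (edgeR adjusted p = 0.815). Of 16 peptide-processing genes tested, 5 rose and 1 fell. Corin, the protease that cleaves the natriuretic peptide precursor, fell to 383 ± 10.9 CPM in KO, against 467 ± 39.5 CPM in control (adjusted p = 0.0078). Qpct, which cyclises N-terminal glutamine, rose to 28.2 ± 1.65 CPM in KO, against 21.3 ± 2.26 CPM in control (adjusted p = 0.00381). Cpd, a carboxypeptidase of the trans-Golgi, rose by a log2 fold change of 0.22 (adjusted p = 0.0108) and the convertase gene Pcsk4 by 0.87 (adjusted p = 0.0118).

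Of 8 genes that supply or bind PAM, 3 rose, 0 fell and 5 were not called, beside 27.9% called among all genes tested. PAM needs copper, and the copper transporters Atp7a (19.5 ± 1.65 CPM in KO, against 16.2 ± 0.848 CPM in control; adjusted p = 0.0266) and Slc31a1 (62.4 ± 2.82 CPM in KO, against 54.4 ± 3.62 CPM in control; adjusted p = 0.0331) rose, as did Rassf9, which binds the PAM cytosolic tail (12.9 ± 0.8 CPM in KO, against 10 ± 1.73 CPM in control; adjusted p = 0.0406). These 3 calls depended on single libraries. That of Atp7a was lost without KO 2, KO 4, control 1 or control 4 (adjusted p up to 0.0821), that of Slc31a1 without KO 1, KO 2, KO 3, control 2 or control 3 (up to 0.0809), and that of Rassf9 without any single library except control 2 (up to 0.12).

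Among 24 genes of the granule membrane and of granule biogenesis, 3 rose and 2 fell. Hid1, needed for granule maturation, rose by a log2 fold change of 0.43 (adjusted p = 0.0042), and Slc18a2, the vesicular monoamine transporter, by 0.52 (adjusted p = 0.00509). Ica1 fell by 0.35 on the log2 scale (adjusted p = 0.0035) and the Golgi GTPase gene Arl1 by 0.22 (adjusted p = 0.0319), the call of Arl1 being lost, with adjusted p up to 0.0932, without KO 2, KO 3, KO 4, control 1 or control 3.

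Of 11 further Rab27 effectors, Unc13d (Munc13-4) was the 1 that rose, to 5.38 ± 0.334 CPM in KO, against 3.26 ± 1.18 CPM in control (SD, n = 4 each; adjusted p = 0.0276), and 0 fell; its call was lost without KO 3, KO 4, control 1 or control 4 (adjusted p up to 0.0777). Of 10 regulators of Rab27, Madd, its exchange factor, rose by a log2 fold change of 0.26 (adjusted p = 0.0322), and Rabggta, a subunit of the enzyme that prenylates Rab proteins, fell by 0.30 on the log2 scale (adjusted p = 0.0178). The call of Madd was lost without KO 2, KO 4, control 1, control 2 or control 4 (adjusted p up to 0.0997) and that of Rabggta without KO 4 or control 1 (adjusted p up to 0.0536). Among 16 other secretory Rab genes and their regulators, 2 rose: Rab3d, of secretory granules in exocrine cells, to 43.2 ± 2.62 CPM in KO, against 27.5 ± 2.81 CPM in control (adjusted p = 9.95e-05), and Rab8a, to 48 ± 2.12 CPM in KO, against 41 ± 0.798 CPM in control (adjusted p = 0.00848).

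Of 29 SNAREs and their regulators tested, 5 rose and 4 fell, a share near that of all genes tested. Stxbp2 (Munc18-2) rose to 34 ± 0.951 CPM in KO, against 16 ± 0.633 CPM in control (SD, n = 4 each; log2 fold change 1.09, adjusted p = 4e-07). Stxbp4, a syntaxin 4 binding protein, rose by a log2 fold change of 0.62 (adjusted p = 0.00331).

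Of 17 synaptotagmins and other C2-domain proteins tested, 3 rose and 2 fell. Doc2g fell to 58.6 ± 8.54 CPM in KO, against 240 ± 30.7 CPM in control (SD, n = 4 each; log2 fold change -2.04, adjusted p = 8.55e-07), but 1926 of its 3035 exon bases are shared with Gm49405 on the same strand, so the fall may not belong to Doc2g. Syt7, a slow calcium sensor of exocytosis, fell to 32.3 ± 5.15 CPM in KO, against 61.6 ± 10.1 CPM in control (adjusted p = 0.000753). Syt15 rose to 1.54 ± 0.231 CPM in KO, against 0.696 ± 0.124 CPM in control (adjusted p = 0.00299). Esyt3, a tether of endoplasmic reticulum to plasma membrane, rose by a log2 fold change of 0.45 (adjusted p = 0.0452), a call lost without KO 2, KO 3, KO 4, control 2, control 3 or control 4 (adjusted p up to 0.149).

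Of 13 priming and docking genes, 1 rose and 2 fell. Unc13b (Munc13-2) fell to 101 ± 4.98 CPM in KO, against 135 ± 5.4 CPM in control (adjusted p = 0.000195), Erc1 fell by 0.23 on the log2 scale (adjusted p = 0.00509), and Baiap3, a Munc13-like protein of dense-core vesicles, rose to 1.52 ± 0.349 CPM in KO, against 0.453 ± 0.152 CPM in control (adjusted p = 0.00107). Of 9 exocyst subunits, 2 rose and 2 fell, Exoc4 by a log2 fold change of 0.39 (adjusted p = 0.00116) and Exoc7 by -0.22 (adjusted p = 0.0102) with the smallest p-values in each direction. Exoc6 fell by 0.34 on the log2 scale (adjusted p = 0.0115), and Exoc6b rose by 0.17 (adjusted p = 0.047), a call lost without any 1 library except KO 1 (adjusted p up to 0.14). Of 4 tested genes of REST and its corepressors, 0 passed the test by edgeR (1 at an unadjusted p under 0.05, 0 with DESeq2 and 0 with limma-voom). Whether REST binds the Scg2 window printed above was not tested. Rest averaged 19.8 ± 2.09 CPM in KO, against 19.2 ± 0.859 CPM in control (adjusted p = 0.731).

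**Figure D5:**
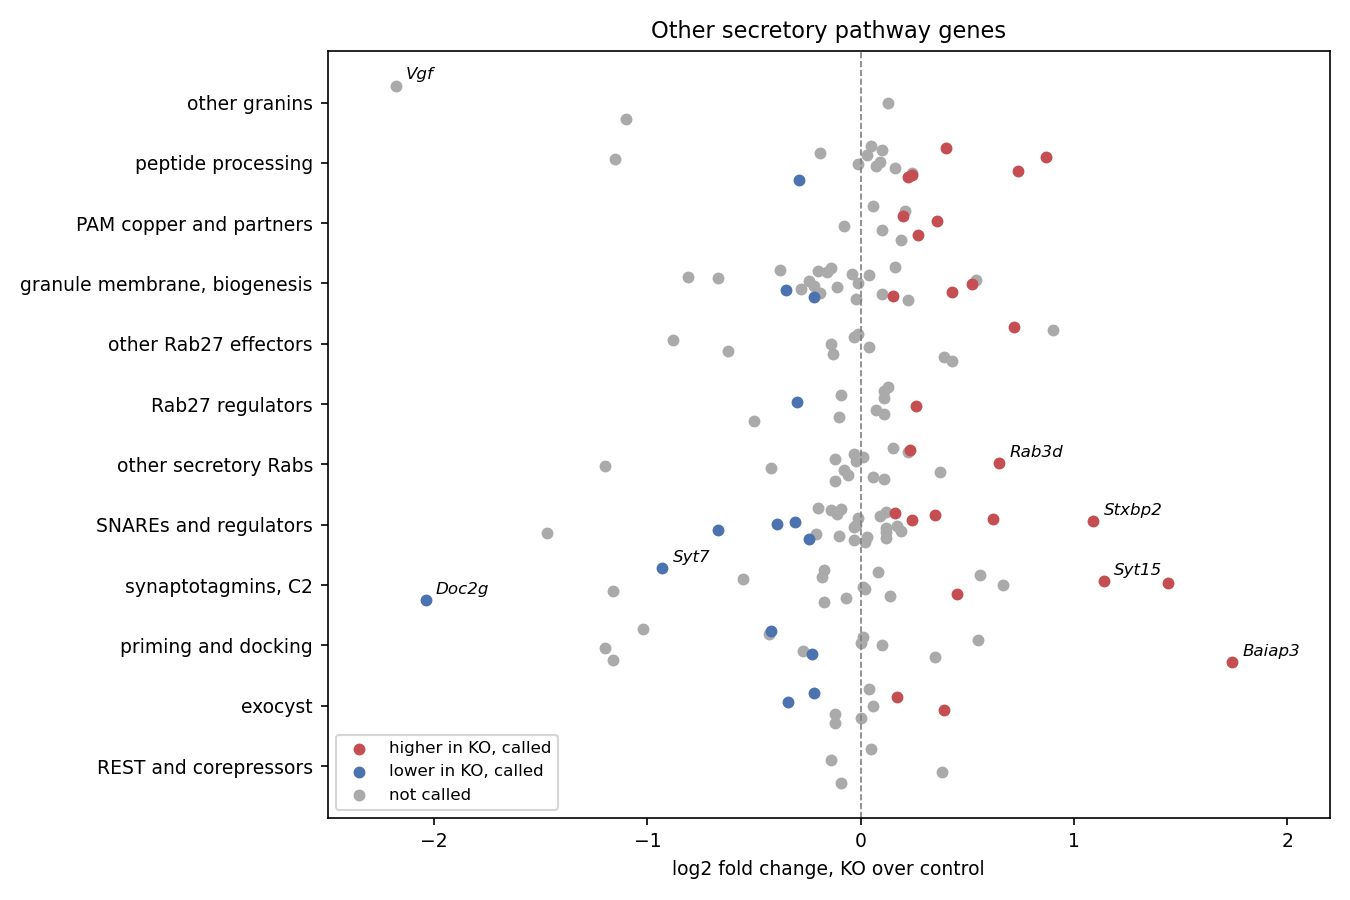
Log2 fold change of KO over control (x axis) for the 160 other secretory genes tested, by list (y axis); each point is a gene, red if called higher in KO, blue if called lower and grey if not called, and the labels mark some of the genes named in the text. Doc2g lies at -2.04, Stxbp2 at 1.09 and Baiap3 at 1.74.

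Strand was not stated for the counting, so where a gene shares exon bases with a gene on the opposite strand, the reads of both cannot be told apart there. Among the called genes named above, this holds for Nppa (532 of 865 exon bases, with Gm13054), Erc1 (1919 of 16271, with Gm44317), Esyt3 (489 of 7138, with Gm37249), Syt7 (384 of 7487, with Gm26859) and Exoc7 (293 of 4367, with Gm26730). It also holds for Arl1 (162 of 2369, with Gm4925), Corin (147 of 5400, with Gm20647), Baiap3 (140 of 5112, with Tsr3) and Slc18a2 (111 of 5225, with Gm29261).

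Markers of other cell types moved with the groups too. Fibroblast markers (3 of 6 rose, 0 fell) summed to 3666 to 4901 CPM in KO and 3388 to 3629 CPM in control, macrophage markers (4 of 6 rose, 0 fell) to 287 to 383 CPM in KO and 239 to 293 CPM in control, and endothelial markers (4 of 6 rose, 1 fell) to 1708 to 1990 CPM in KO and 1520 to 1651 CPM in control. Epicardial markers (3 of 5 rose, 0 fell) summed to 613 to 758 CPM in KO and 464 to 605 CPM in control. Of 4 lymphocyte markers tested, 2 rose and 0 fell, with a sum over all 7 of 5.34 to 12.3 CPM in KO and 1.78 to 5.84 CPM in control. Of platelet, mast cell and Schwann cell markers, 5 in each list were tested and 0 were called by edgeR or DESeq2, while limma-voom called 1, the Schwann cell gene Cdh19 (at an unadjusted p under 0.05 in edgeR, 0, 1 and 2 genes of the platelet, mast cell and Schwann cell lists). Their sums were 22.6 to 25.4, 18.9 to 21.9 and 22.4 to 29.5 CPM in KO, against 18.9 to 59.5, 16.6 to 21.2 and 21.8 to 28.4 CPM in control. Of 3 ventricular markers tested, Myl3 alone rose, to 724 ± 102 CPM in KO, against 295 ± 140 CPM in control. Myl2, not called, averaged 26.4 ± 28 CPM in KO, against 92.6 ± 117 CPM in control, with 268 CPM in control 1. Irx4, not tested, averaged 0.0838 ± 0.112 CPM in KO, against 0.958 ± 1.5 CPM in control. Hey2, not called, averaged 4.37 ± 1.25 CPM in KO, against 3.45 ± 0.33 CPM in control. The sum over all 4, mostly Myl3, was 656 to 942 CPM in KO and 219 to 775 CPM in control. Genes such as Stxbp2, Rab3d and Unc13d are also used by blood and epithelial cells, and what these cells contribute to their levels was not tested.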

How the data were processed

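The deposited table held whole-number counts of reads per gene for 8 libraries, not normalised, as made by the authors. The submitters' processing notes name STAR, DESeq2 and the build mm10, without versions; counting, strand setting and annotation are not given in the sources used here. Coordinates and exon lengths are from GENCODE M21 (GRCm38, the assembly of mm10), which holds 54495 of the 54532 gene identifiers, and promoter windows are from RefSeq.

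Counts were tested with edgeR 4.0.16 (limma 3.58.1, R 4.3.3): filterByExpr (minimum count 10, minimum total 15), TMM factors and the robust quasi-likelihood test with Benjamini-Hochberg adjustment over 18033 genes, called under 0.05, with all 8 libraries and no covariate. Every adjusted p printed is from this test. Alternatives included DESeq2 1.42.0, limma-voom and leaving out each library. The 10 genes and all lists were chosen with earlier results of these data known. Named besides the 10 were Chd4, Nppa, the markers and up to 4 called genes per list. The called genes were those with the smallest p and a mean of at least 1 CPM in either group. Sytl3, Sytl5, Vgf, Scg3, Rest, Snap25, Syt1, Rab3c, Pcsk1n, Chm and Ddx3y were added after seeing values. Some genes named by this rule are not reported here. Whether each library is a mouse of its own is not stated. The p-values then reflect library-to-library spread alone, which may be technical. The floor of 3 counts covers counting error only. The fit was tested on simulated data.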

Additional observations from a re-analysis of the deposited data

Results flagged for a closer look

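Of 86 groups of 4 libraries examined (each gene named by rule, in KO and in control), 6 held a library set apart, with a gap to its nearest neighbour that took up more of the group's range than Dixon's critical value for 4 samples. Chance alone flags about 1 in 20 groups. Chga was at 1.73 CPM in KO 4, against 0.0496 to 0.206 CPM in the other KO libraries. Chgb was at 0.149 CPM in KO 2, against 0.975 to 1.09 CPM in the others. Rab27a was at 22.1 CPM in KO 1, against 18.1 to 18.2 CPM in the others. Pcsk4 was at 3.32 CPM in KO 2 (others 1.98 to 2.11 CPM), Esyt3 at 8.98 CPM in KO 2 (others 6.32 to 6.75 CPM), and Stxbp4 at 11.8 CPM in control 2 (others 16.6 to 17.4 CPM).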

How the results depend on the processing

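Over 19 alternatives, 18 of them planned, 19 of 43 gene results kept their call and direction in every one, Sytl2 among them. Most of the 43 were members or genes named for a small p in this same contrast. Nothing is therefore read from that share, and it gives Sytl2 no test. Genes called higher in KO numbered 2677, and 1700 against controls 3 and 4 alone; leaving out 1 library gave 2032 to 2687 higher and 1877 to 2614 lower. With library totals alone, 70.1% of calls were higher in KO, against 53.2% with TMM, at a median log2 fold change of 0.09. Members called higher (1) were 0 with no filter, with the replicate block and against controls 1 and 2 alone, and 0 to 1 with 1 library left out. Members called lower (3) were 1 with library totals alone and against controls 1 and 2 alone, and 1 to 4 with 1 library left out. Other secretory genes called higher (26) were 40 with library totals, 15 against controls 1 and 2, 14 against controls 3 and 4, 16 without KO 2 and control 2, and 16 to 25 with 1 library left out; those called lower (14) were 23 with limma-voom, 24 without KO 2 and control 2, and 12 to 23 with 1 library left out. The sign turned for Chga with limma-voom (-0.09) and without KO 4 (range -1.15 to 1.21), for Rab27b against controls 3 and 4 (-0.03) and without KO 2 and control 2 (-0.01), and for Sytl4 against controls 3 and 4 (-0.13) and with 1 library left out (-0.03 to 0.18). The cause was not tested. A minimum of 1 CPM in 4 libraries tested 7 members only. Same-numbered KO and control libraries correlated at -0.015, 0.303, -0.056 and 0.105 in their deviations from the group means, and not every library was closest to its own number, so the number is not taken as a pairing; the replicate block gave 4757 calls, against 5032. The depth limits the granins, of which Chga and Scg2 had libraries at or under 3 counts.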

Other observations

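Control libraries carry 2 name prefixes, which split controls 3 and 4 from controls 1 and 2. Between these pairs, 37.6% of all 18033 genes tested did not overlap, and 5 of the 10 genes did not: Pam averaged 7041 CPM in controls 3 and 4 and 6175 CPM in controls 1 and 2, Chgb 2.74 and 1.72 CPM, Rab27b 8.16 and 6.05 CPM, Sytl2 69.2 and 62.3 CPM, and Sytl4 5.18 and 3.82 CPM. With only 2 libraries on each side, many genes do not overlap by chance alone, so these shares are not read as an effect of the prefix. Ddx3y, on the Y chromosome, splits the same pairs, at 105 and 106 CPM in controls 3 and 4 and 0.858 and 0.706 CPM in controls 1 and 2, so prefix and Ddx3y cannot be told apart among controls. Chm, the Rab escort protein that presents Rab27a for prenylation, was at 43.9, 39.1, 34.9 and 35.9 CPM in KO, against 32.3, 30.6, 79.2 and 75.2 CPM in control, and thus high in controls 3 and 4 alone; it was chosen after its values were seen.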
